A study of Mus musculus with 18 samples.

Results

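H3K27ac is the acetylated form of lysine 27 of histone H3, and its distribution in the adult mouse cortex was measured here by chromatin immunoprecipitation and sequencing (ChIP-seq). The members are the 3 H3K27ac peak lists, chosen by antibody and limited to chromosomes 1 to 19, of 15 libraries with a peak list and 18 samples in all. They hold 66055, 67877 and 57846 peaks in animals 5, 7 and 9, or 191778 of the 488083 peaks that the lists of all 5 antibodies hold on these chromosomes. All animals were wild-type female C57BL/6J mice aged 14 weeks with no treatment, and the cortices had been bought and shipped frozen. Each animal also gave libraries against H3K4me1, PolII_S5P (RNA polymerase II phosphorylated at serine 5), MBD3 and TDG, which serve here as annotation, and an input sample, which was not analysed here. Replicates are separate animals, so equal numbers mark the same mouse.

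Acetylation of H3 lysine 27 is placed by the coactivator acetyltransferases CBP and p300 and removed by histone deacetylases. It marks the nucleosomes that flank active promoters and active enhancers. Enhancers carry H3K4me1 as well, whether active or not, and long runs of acetylated elements lie near many genes that define a cell type. PolII_S5P is the form of the polymerase found near start sites. MBD3 is a subunit of NuRD, a chromatin remodelling complex that includes histone deacetylases, and TDG is the glycosylase that removes oxidized methylcytosine and mismatched thymine. In a bulk tissue a peak averages over all cell types, so a mark in few cells and a weak mark in many cells cannot be told apart.

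The lists differed in length. The median fold enrichment of a peak over its local background, the authors' own value, was 3.69, 3.73 and 3.66 in animals 5, 7 and 9, and the highest was 26.0, 28.8 and 26.7. The covered sequence was 69.9, 69.0 and 52.4 Mb, so animal 9 had the fewest peaks and the least sequence. Read depth is unknown, so its part in that difference was not tested. The gene table used here is on an older assembly than the peaks, so regions are given by position on mm39, without genes, and cell type markers could not be checked.

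Most H3K27ac peaks were narrow, while most acetylated sequence lay in wide peaks. The median width was 665, 630 and 570 bp in animals 5, 7 and 9, and the central range between the lower and upper quartile ran from 378 ± 20.6 to 1190 ± 108 bp (SD, n = 3). In classes that leave out their upper bound, peaks under 500 bp made up 39.7 ± 3.43% of the peaks but 14.3 ± 2.16% of the covered bases. Peaks of 2000 bp or more were the reverse: those of 2000 to 5000 bp made up 9.79 ± 1.37% of peaks and 28.3 ± 1.94% of bases, and those of 5000 bp or more 1.2 ± 0.28% and 8.40 ± 1.55%. Peaks of at least 1560, 1518 and 1303 bp held 50% of the covered bases in animals 5, 7 and 9. The widest single peaks reached 35887, 27470 and 19786 bp.

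**Figure D1:**
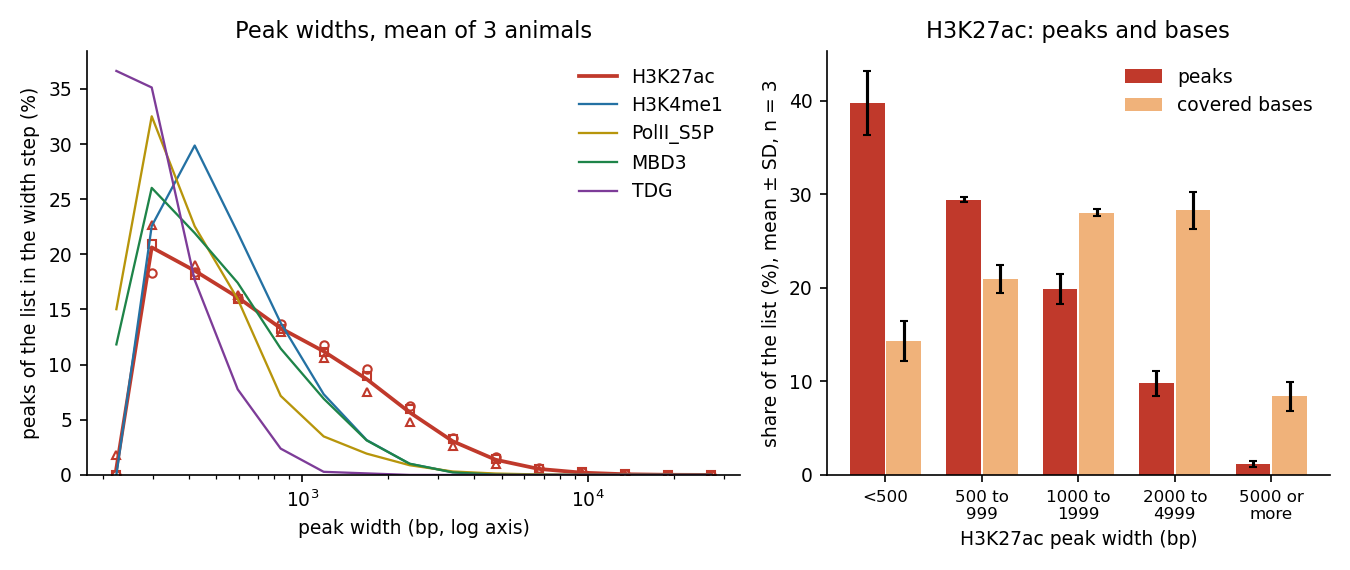
Left, percent of peaks of a list (y) by peak width in bp (x, log axis, steps of a doubling split in 2), lines for the mean of 3 animals per antibody and open symbols for H3K27ac in animals 5 (circle), 7 (square) and 9 (triangle). Right, bars for the mean share of H3K27ac peaks and of covered bases in 5 width classes with SD over 3 animals: peaks under 500 bp are 39.7% of peaks and 14.3% of bases.

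H3K27ac peaks were wider than those of every other antibody in each of the 3 animals. Their mean of median widths was 622 ± 48.0 bp (SD, n = 3), against 485 bp for H3K4me1, 429 bp for MBD3, 366 bp for PolII_S5P and 284 bp for TDG. The differences within animals were 137 ± 62.7, 192 ± 14.6, 255 ± 55.5 and 338 ± 53.0 bp in that order. In all 4 comparisons the libraries did not overlap, with a two-sided exact permutation p of 0.1 (adjusted p = 0.1), which is the smallest that 3 libraries against 3 allow, so no test of this kind here could pass 0.05. In the names of unplaced sequences the lists of MBD3 and TDG repeat a prefix that H3K27ac, H3K4me1 and PolII_S5P give once, so for those 2 antibodies a difference in processing cannot be told apart from the antibody.

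Wide peaks were the strong ones and the ones more often touched by a peak of another antibody. Median fold rose over the width classes from 3.19 ± 0.0574 under 500 bp to 7.53 ± 0.435 at 5000 bp or more (SD, n = 3), and width and fold had a Spearman correlation of 0.518, 0.530 and 0.445 across peaks in animals 5, 7 and 9. An MBD3 peak of the same animal lay on 22.7 ± 3.61% of H3K27ac peaks under 500 bp, 41.7 ± 5.04% of those of 500 to 1000 bp, 68.5 ± 6.69% of those of 1000 to 2000 bp, 87.8 ± 4.39% of those of 2000 to 5000 bp and 97.4 ± 1.54% of those of 5000 bp or more. H3K4me1 went from 16.0 ± 5.17% in the narrowest class to 68.3 ± 6.97% in the widest, and PolII_S5P from 4.60 ± 3.12% to 32.7 ± 16.5%. A wider peak can be touched more easily, so these shares grow in part by construction. The share of bases inside an MBD3 peak did not follow width all the way: it was 13.9% under 500 bp, 33.0% at 1000 to 2000 bp, 33.7% at 2000 to 5000 bp and 28.9% at 5000 bp or more. For H3K4me1 the share of bases rose far less than the share of peaks touched, from 13.2% under 500 bp to 18.9% at 5000 bp or more. For PolII_S5P it was 2.72% under 500 bp, 5.91% at 1000 to 2000 bp and 5.41% at 5000 bp or more. TDG stood on 0.112%, 0.0972% and 0.989% of H3K27ac peaks of all widths in animals 5, 7 and 9. Among peaks of 5000 bp or more it stood on 0 of 902 and 0 of 865 in animals 5 and 7. At overall shares this low, those 0 counts cannot show whether TDG was absent from wide peaks. In animal 9, whose TDG list was also the longest, TDG stood on 9.69% of 485 such peaks.

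The position of the summit, the base with the highest pileup, changed with peak width. In peaks under 500 bp the summit was central, with 34.1 ± 2.19% of summits in the central 20% of the width (SD, n = 3). In peaks of 500 to 1000 bp the distribution had 2 humps with a trough between them. Only 16.0%, 15.5% and 15.2% of summits lay in the central 20% in animals 5, 7 and 9. The zones from 15 to 35% and from 65 to 85% of the width together held 58.6%, 59.6% and 57.7%, or 29.3 ± 0.480% for each 20% of width. The humps stood at 0.225 and 0.775 of the width. Peaks of 1000 to 2000 bp had both side humps and a central one, and peaks of 2000 to 5000 bp were central again, with 32.7 ± 0.929% in the central 20%. In peaks of 5000 bp or more the central share was lower again, at 25.7 ± 1.47%. The 3 animals traced the same shape in each class below 5000 bp, and the humps were even, with 50.9 ± 0.296% of all summits left of the middle. Summit position also went with strength. Its median distance from the middle was 0.308 ± 0.0135 of the width in the weakest 10% of peaks by fold and 0.156 ± 0.0124 in the strongest. Width and strength were not separated here.

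**Figure D2:**
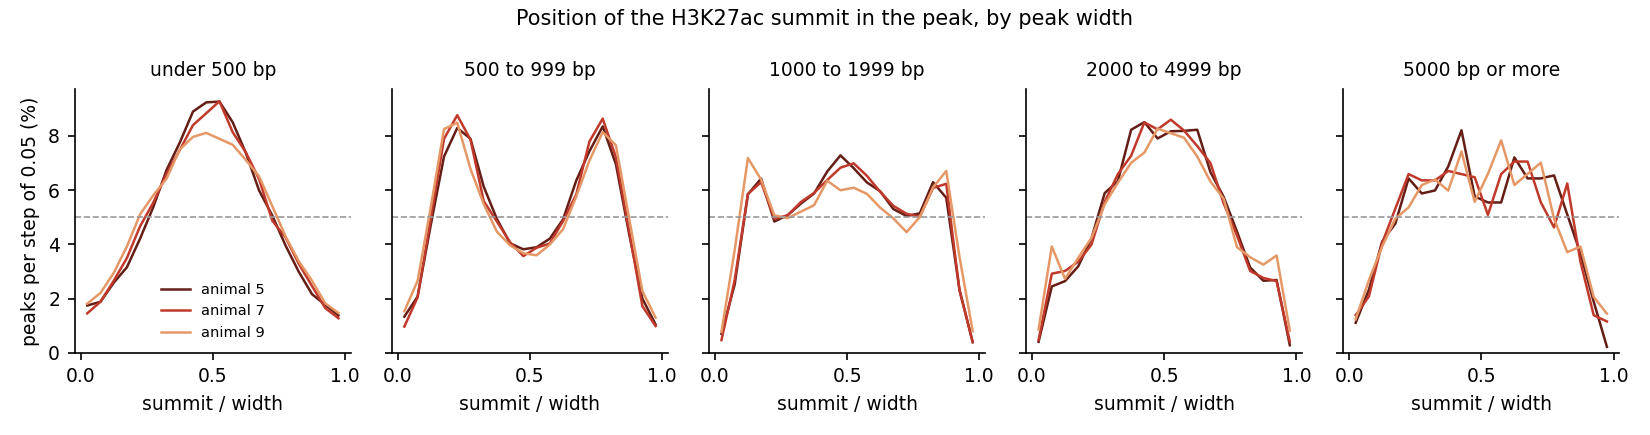
Percent of H3K27ac peaks (y) whose summit falls in each step of 0.05 of the peak width (x, 0 is the start and 1 the end), in 5 width classes, lines for animals 5, 7 and 9. The dashed line at 5% is an even spread: summits of peaks of 500 to 1000 bp fall below it in the centre and gather near 0.225 and 0.775.

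In finer steps the trough was deepest where peaks were 625 to 749 bp wide. There 13.5 ± 0.474% of summits lay in the central 20%, and the summit stood a median of 170 ± 6.24 bp from the nearer edge (SD, n = 3). From 250 to 374 bp the central share was 38.1 ± 2.02% with a distance of 109 ± 4.04 bp to the edge, and from 1875 to under 2000 bp it was back at 32.2 ± 1.92% with 648.5 ± 8.05 bp.

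The trough was not shared by every antibody. In peaks of 500 to 1000 bp the central 20% held 13.9%, 15.2% and 14.7% of H3K4me1 summits and 14.8%, 18.7% and 14.6% of PolII_S5P summits in animals 5, 7 and 9. It held 34.0%, 33.7% and 30.6% of MBD3 summits, so MBD3 peaks of the same width were central. Over all widths the mean of median folds was 5.73 for MBD3, 3.69 for H3K27ac and 3.01 for H3K4me1, and peaks were not matched for fold. H3K27ac lay 17.2 ± 1.53 percentage points below MBD3 in the same animals (SD of the differences, n = 3, two-sided exact permutation p = 0.1, adjusted p = 0.133). It lay 0.978 ± 0.945 points above H3K4me1 (exact p = 0.1, adjusted p = 0.133) and 0.479 points below PolII_S5P (exact permutation p = 1), and both of these small differences turned sign among peaks with a −log10 q of at least 5, at -2.14 and 0.628 points. Without animal 7 the difference from PolII_S5P also turned sign, to 0.877 points. TDG had 11, 35 and 66 peaks of this width, of which 27.3%, 20% and 18.2% had a central summit.

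Inside H3K27ac peaks, MBD3 summits were also more central than H3K4me1 summits. In H3K27ac peaks of 1000 to 2000 bp, 34.2%, 34.4% and 33.7% of MBD3 summits lay in the central 20% of the H3K27ac peak in animals 5, 7 and 9, against 19.01%, 18.0% and 18.4% of H3K4me1 summits. The difference was 15.6 ± 0.621 points (SD, n = 3, two-sided exact permutation p = 0.1, adjusted p = 0.1). PolII_S5P summits were also central there, with 40.9%, 34.2% and 30.5%. In H3K27ac peaks of 500 to 1000 bp the MBD3 share was 23.4% and the H3K4me1 share 20.7%, a difference of 2.72 ± 0.437 points with the same p. MBD3 summits therefore fell in the middle of H3K27ac peaks of 1000 to 2000 bp more often than H3K4me1 summits in each of the 3 animals. Over H3K27ac peaks of all widths that the antibody overlaps, a different set for each, the nearest summit stood a median of 256 ± 6.81 bp away for MBD3, 222 ± 10.6 bp for H3K4me1 and 171 ± 1.73 bp for PolII_S5P.

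Summits of the same region lay close together in different animals. In the 25340 regions with exactly 1 peak in each animal, the median distance between the summits of 2 animals was 60 to 68 bp over the 3 pairs. In 59.9 to 63.1% of regions it was within 100 bp, and in 8.96 to 10.0% it was over 500 bp. For mean widths of 500 to 1000 bp, where the trough lies, the medians were 68 to 77 bp. As a share of the width the distance fell from 0.134 to 0.156 under 500 bp to 0.0207 to 0.0235 at 2000 bp or more. Over all widths the median distance of the summit from the middle was 0.194 of the width for H3K27ac, against 0.222 for H3K4me1, 0.177 for PolII_S5P and 0.130 for MBD3 (two-sided exact permutation p = 0.1 and adjusted p = 0.133 for each), and 0.155 for TDG (exact p = 0.4). Among peaks with a −log10 q of at least 5 the difference from H3K4me1 turned sign, to 0.00444. In lists of equal length it was -0.0118 (exact p = 0.6). An even spread gives 0.25.

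About 65% of H3K27ac peaks stood in clusters. Peaks at most 3 kb apart were joined into domains, which gave 37500, 37727 and 32462 domains in animals 5, 7 and 9, of which 13596, 14414 and 12477 held several peaks. Multi-peak domains held 63.8%, 65.7% and 65.5% of the peaks and 66.5%, 68.2% and 68.3% of the covered bases. Pairs were the most frequent kind, with 7800 ± 482 domains, and domains of 11 or more peaks numbered 207, 230 and 177 and held 7.38 ± 0.247% of the covered bases (SD, n = 3). Peaks filled 63.3 ± 0.836% of the span of multi-peak domains. The domain with most peaks had 47, 49 and 55, and the widest spanned 123328, 145508 and 134387 bp. Neighbours within 3 kb were a median of 600, 555 and 523 bp apart. The smallest gap in each list, 267, 255 and 245 bp, was 1 bp more than the smallest width, so peaks closer than that do not occur in the lists. Whether closer ones were joined into 1 wider peak was not tested.

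The order of the antibodies in clustering differed between the full lists and their strongest peaks. As deposited, 65.0 ± 1.01% of H3K27ac peaks lay in multi-peak domains, against 51.3% for H3K4me1, 39.8% for PolII_S5P, 36% for MBD3 and 14.0% for TDG (SD, n = 3, two-sided exact permutation p = 0.1 and adjusted p = 0.1 for each). With all lists of an animal cut to its 4351, 19509 and 12526 strongest peaks, the length of the shortest list other than TDG, the share for H3K27ac was 12.8%, 34.6% and 33.6% in animals 5, 7 and 9. It was then below PolII_S5P (36.6%, 44.3% and 38.4%) and H3K4me1 (21.3%, 41.1% and 37.7%) in every animal, and above MBD3 (4.37%, 14.2% and 12.01%). The order of H3K27ac against H3K4me1 and PolII_S5P thus turned, while that against MBD3 did not. This step changes the number and the strength of the peaks together, and the part of each cannot be told apart.

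As H3K27ac domains grew, H3K4me1 covered more of their acetylated bases and MBD3 less. In single peaks 11%, 16.1% and 9.26% of the bases lay in an H3K4me1 peak in animals 5, 7 and 9, and in domains of 11 or more peaks 24.0%, 35.9% and 20.6%. The means over the size classes of 1, 2, 3 to 5, 6 to 10 and 11 or more peaks were 12.1%, 15.0%, 17.7%, 21.2% and 26.8%. MBD3 went the other way, from 44.1%, 44.4% and 26.5% of the bases of single peaks to 16.1%, 17.6% and 10.2% of those of the largest domains, with means of 38.4%, 28.7%, 22.6%, 18.4% and 14.6%. Each animal showed both trends at every step. The change from single peaks to the largest domains was 14.7 ± 4.47 percentage points for H3K4me1 and -23.7 ± 6.45 for MBD3 (SD, n = 3). These changes differed by 38.4 ± 9.76 points (two-sided exact permutation p = 0.1, the smallest possible). Among peaks with a −log10 q of at least 5 the H3K4me1 change was 9.04 points. PolII_S5P bases were highest at both ends, with means of 6.65% in single peaks, 3.25% in domains of 3 to 5 peaks and 6.59% in domains of 11 or more.

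**Figure D3:**
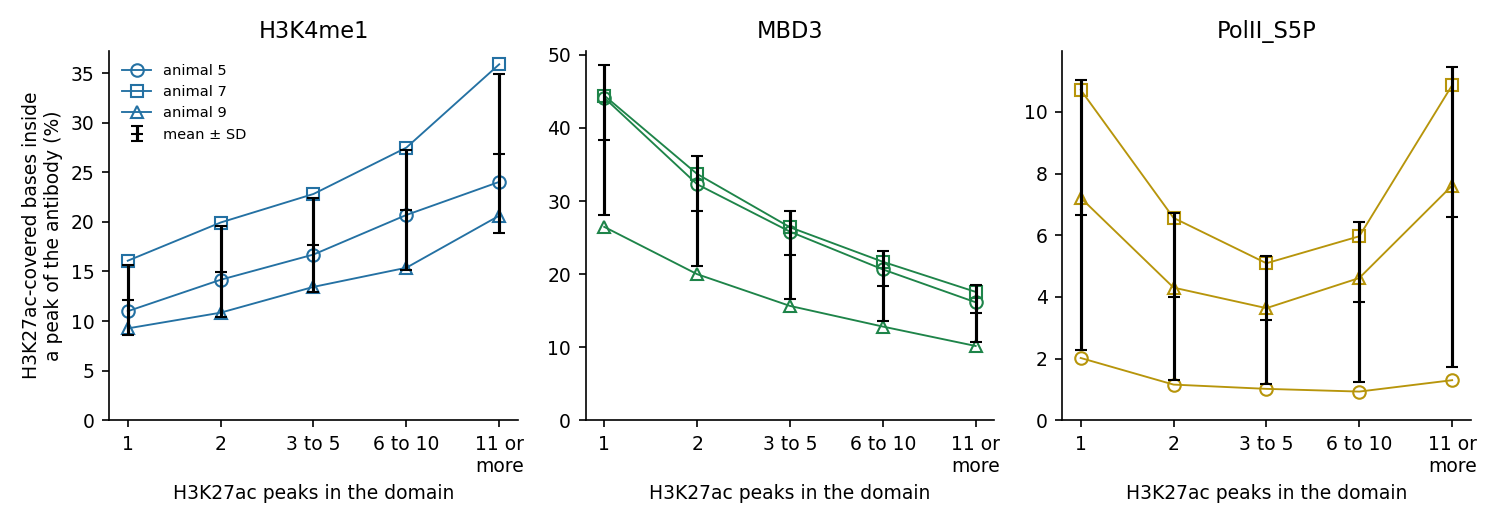
Percent of H3K27ac-covered bases that lie in a peak of the named antibody of the same animal (y) by the number of H3K27ac peaks in the domain (x, classes), lines for animals 5, 7 and 9 and black bars for mean ± SD (n = 3). From single peaks to 11 or more peaks the H3K4me1 mean goes from 12.1% to 26.8% and the MBD3 mean from 38.4% to 14.6%.

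The opposite trends were also present among peaks of like width. For H3K27ac peaks of 1000 to 2000 bp, an MBD3 peak lay on 85.6%, 86.8% and 74.8% of single peaks in animals 5, 7 and 9, but on 42.8%, 47.9% and 36.1% of peaks in domains of 6 or more. An H3K4me1 peak lay on 25.5%, 32.3% and 21.7% of the single peaks and on 47.4%, 56.1% and 38.3% of the others. Over 4 width classes below 5000 bp and 3 animals, the MBD3 share was lower in domains of 6 or more in 12 of 12 comparisons, by 15.8 to 42.7 points, and the H3K4me1 share was higher in 12 of 12, by 1.65 to 29.1 points. PolII_S5P was lower in 11 of 12. Median fold differed little between the sizes, with 3.68 ± 0.0179 in single peaks, 3.78 ± 0.0905 in domains of 6 to 10 and 4.01 ± 0.0887 in those of 11 or more (SD, n = 3). A whole domain still usually met MBD3 somewhere: 96.8 ± 1.2% of domains of 11 or more held an MBD3 peak, 93.8 ± 4.51% an H3K4me1 peak and 55.3 ± 22.9% a PolII_S5P peak.

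Large domains recurred as multi-peak domains more often than pairs did. A domain of 2 peaks met a multi-peak domain in both other animals in 39.0 ± 5.80% of cases, one of 3 to 5 peaks in 75.9 ± 6.19%, one of 6 to 10 in 97.0 ± 1.13% and one of 11 or more in 99.8 ± 0.279% (SD, n = 3). Counting any H3K27ac peak in both other animals, the share was 86.1 ± 6.39% for domains of 2 peaks and 60.3 ± 8.88% for single peaks. A longer domain can meet another more easily, so these shares grow in part by construction. Median spans were 2138 ± 167 bp for domains of 2 peaks and 29249 ± 1283 bp for those of 11 or more. The strongest peak of a domain was near evenly placed along it. In domains of 3 peaks it was the middle peak in 36.5%, 37.6% and 39.0% of cases in animals 5, 7 and 9, against 33.3% of places, and in domains of 4 it was an inner peak in 54.0 ± 0.794% against 50%.

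Joined over the 3 lists, H3K27ac formed 43442 domains, of which 554 spanned at least 20 kb and 75 at least 50 kb. The widest lay on chromosome 18, 69625746 to 69815077, and spanned 189 kb with 66, 64 and 68 H3K27ac peaks in animals 5, 7 and 9. It held 76, 74 and 65 H3K4me1 peaks, 7, 70 and 59 PolII_S5P peaks and 50, 50 and 32 MBD3 peaks. The next pair lay side by side on chromosome 14, at 64353234 to 64527304 (174 kb, 54, 47 and 47 peaks) and 64533604 to 64680730 (147 kb, 44, 42 and 48 peaks). These had almost no PolII_S5P peaks, with 0, 1 and 1 in the former and 0, 2 and 2 in the latter, but 35, 41 and 28 and 30, 39 and 21 MBD3 peaks. A domain on chromosome 3, 55314157 to 55451821 (138 kb), had 61, 57 and 51 H3K27ac peaks with 13, 58 and 52 PolII_S5P peaks. One on chromosome 6, 135761012 to 135898905 (138 kb), had 44, 41 and 44 with 5, 26 and 8. The widest domains thus ranged from nearly no PolII_S5P peaks to about as many as H3K27ac peaks, and the PolII_S5P list of animal 5 was the shortest, with 4351 peaks.

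H3K27ac density differed between chromosomes in a similar but not identical order in every animal. Over 2460 Mb, taken to the end of the furthest peak of each chromosome, there were 26.9, 27.6 and 23.5 peaks per Mb in animals 5, 7 and 9. Chromosome 11 was the densest, with 34.3 ± 2.97 peaks per Mb, followed by chromosome 9 with 32.7 ± 2.84. Chromosomes 14 and 3 were the sparsest, with 21.7 ± 1.91 and 20.9 ± 1.68 (SD, n = 3). The highest was 1.64 times the lowest. With each library's own mean set to 1, chromosome 11 stood at 1.32 ± 0.00947 and chromosome 3 at 0.804 ± 0.00848, so the spread over animals was far below the distance between them. Of the 18 neighbouring pairs in this order, 11 stood in the same order in each animal, and in 8 pairs the ranges of these relative values over the animals did not overlap. The run of chromosomes 10, 6, 16, 5 and 18, from 25.1 to 25.0 per Mb, could not be ordered. Across the 19 chromosomes the Spearman correlation of density between animals was 0.958 to 0.981. That of mean H3K27ac density with PolII_S5P density was 0.926, with MBD3 0.847, with H3K4me1 0.626 and with TDG 0.342, all across chromosomes that share libraries and gene content.

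**Figure D4:**
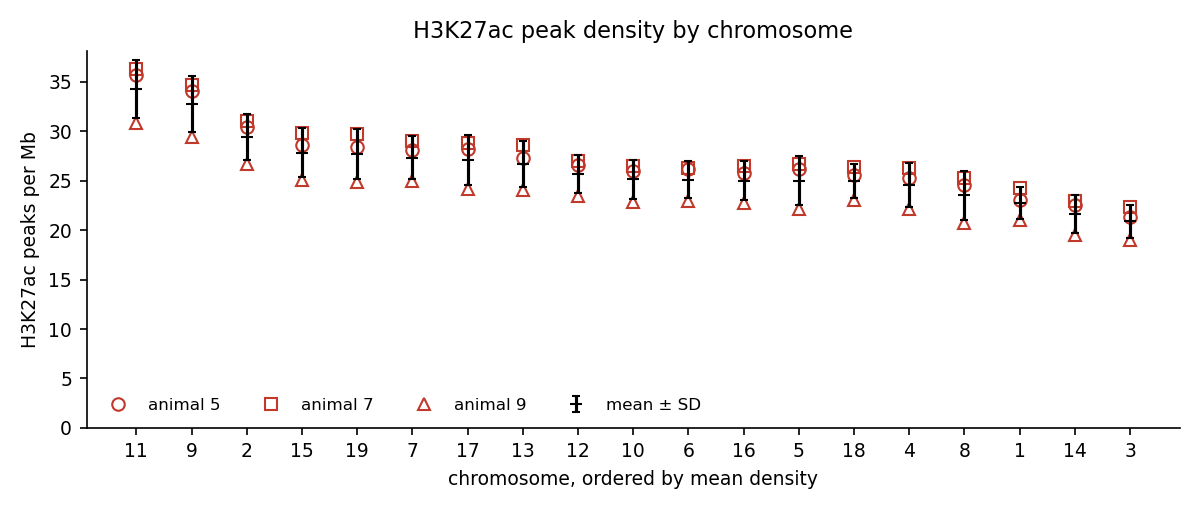
H3K27ac peaks per Mb (y) for chromosomes 1 to 19 in order of mean density (x), symbols for animals 5, 7 and 9 and bars for mean ± SD (n = 3). Chromosome 11 lies at 34.3 and chromosome 3 at 20.9 per Mb, and animal 9 is lowest on every chromosome.

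Within chromosomes the mark was far more uneven. Of 2468 windows of 1 Mb, 211 had no H3K27ac summit in any animal, and the median window had 19, 20 and 16 summits in animals 5, 7 and 9. Windows ran from the start of each chromosome, and no map of sequence gaps was used. Empty windows that lack readable sequence therefore cannot be told apart from those that lack the mark. The densest 10% of windows, 247 in number, held 31.9 ± 0.580% of the peaks (SD, n = 3). Counts per window had a Spearman correlation of 0.983 to 0.988 between animals. Their mean had 0.928 with MBD3, 0.925 with H3K4me1 and 0.774 with PolII_S5P, a different order from that across whole chromosomes. The densest window was chromosome 2 from 7 to 8 Mb, with 198, 211 and 189 peaks in animals 5, 7 and 9, among 45, 73 and 25 H3K4me1 and 38, 54 and 20 MBD3 peaks. Chromosome 10 from 108 to 109 Mb had 165, 195 and 171, and chromosome 16 from 9 to 10 Mb had 159, 165 and 175. At the other end, 221 stretches of at least 1 Mb had no H3K27ac region in any animal and made up 14.9% of the span. The longest, chosen after their values were seen, were chromosome 2, 85257140 to 90016555 (4.76 Mb), chromosome 5, 58145165 to 62496902 (4.35 Mb), and chromosome 7, 19668087 to 23780840 (4.11 Mb). None of these had an H3K4me1 or PolII_S5P peak in any animal, and they had 8, 4 and 0 MBD3 peaks over the 3 lists.

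Regions found in every animal were wide and those of 1 animal narrow. Merging overlapping peaks of the 3 lists gave 83349 regions, of which 36220 (43.5%) had a peak in all 3 libraries, 16352 (19.6%) in 2 and 30777 (36.9%) in 1. Their median widths were 1419, 607 and 353 bp, and the regions of all 3 libraries held 73.5% of the merged bases. Width and fold come from the lists that define these classes, so these are descriptions. Regions of 1 library numbered 12542 in animal 5, 12341 in animal 7 and 5894 in animal 9, and regions of 2 libraries were mostly those of animals 5 and 7 (9588, against 2801 and 3963 for the pairs with animal 9). In the terms of each list, 62.0%, 61.4% and 78.0% of peaks lay in a region of all 3 libraries. By width this was 42.1 ± 15.5% of peaks under 500 bp, 70.1 ± 13.04% at 500 to 1000 bp, 93.4 ± 4.53% at 1000 to 2000 bp, 99.5 ± 0.428% at 2000 to 5000 bp and 100% at 5000 bp or more (SD, n = 3).

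The other antibodies, which took no part in the classes, followed the same order. An MBD3 peak of the same animal lay on 59.8%, 63.1% and 45.1% of H3K27ac peaks found in 3 libraries in animals 5, 7 and 9, against 20.3%, 17.0% and 7.65% of those found in 1, a difference of 41.0 ± 4.49 points (SD, n = 3). For H3K4me1 the shares were 32.3%, 39.6% and 20.9% against 14.0%, 19.5% and 10.6%, a difference of 16.2 ± 5.21 points. For PolII_S5P they were 5.39%, 22.3% and 15.1% against 0.933%, 4.03% and 2.75%, a difference of 11.7 ± 6.92 points. The 2 sets of values did not overlap for any of these 3 antibodies (two-sided exact permutation p = 0.1, adjusted p = 0.133). Averaged over 5 width classes of equal number the differences were 25.0 points for MBD3, 5.42 for H3K4me1 and 9.31 for PolII_S5P, with the H3K4me1 values overlapping (exact p = 0.4). This average weighs all classes alike, though the widest held only 23, 9 and 4 peaks of 1 library in animals 5, 7 and 9. In animal 9 the H3K4me1 difference was -15.1 points in that class and 0.687 to 3.35 points in the others. Over all widths, with at least 0.5 of the peak covered, the differences were 16.2 points for MBD3, 4.10 for H3K4me1 (exact p = 0.4) and 1.05 for PolII_S5P (exact p = 0.5), so the H3K4me1 and PolII_S5P differences were no longer beyond the spread of the libraries. TDG was rare at both, with 0.166%, 0.134% and 1.15% against 0.00797%, 0.0243% and 0.390% (exact p = 0.5). Peaks found in 2 libraries lay between, with 34.9%, 35.1% and 12.8% for MBD3. Within the same width classes, the share was higher in peaks of 3 libraries in 15 of 15 comparisons for MBD3 and for PolII_S5P. Some of those for PolII_S5P rest on little. In the widest class it lay on 0 of 9 and 0 of 4 peaks of 1 library in animals 7 and 9. In the narrowest class of animal 5 the shares were 0.823% and 0.762%. For H3K4me1 the share was higher in 14 of 15, the exception being the widest class of animal 9 with 4 peaks of 1 library, and for TDG in 13 of 15. The peaks of 1 library with TDG numbered only 0 to 9 per comparison.

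**Figure D5:**
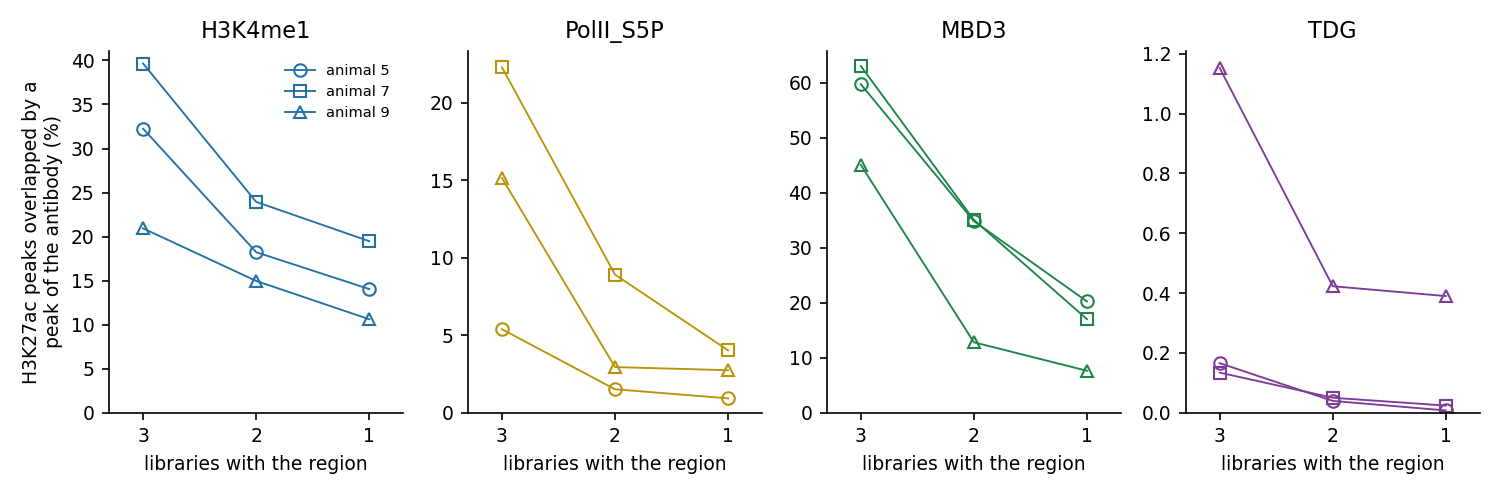
Percent of H3K27ac peaks overlapped by a peak of the named antibody in the same animal (y, a scale of its own per panel) for peaks whose region is in 3, 2 or 1 of the H3K27ac libraries (x), lines for animals 5, 7 and 9. In every panel and animal the share is highest for peaks of 3 libraries, at 59.8%, 63.1% and 45.1% for MBD3.

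Counted by region, 4592 of the regions in all 3 libraries (12.7%) had no peak of another antibody in any animal, against 36.7% of those in 2 and 57.0% of those in 1. Median widths of these classes were 1419, 607 and 353 bp. A wider region can be touched more easily, so these shares differ in part by construction. Of the regions in all 3, 18132 (50.1%) had MBD3 in all 3 animals, 6197 H3K4me1, 1944 PolII_S5P and 38 TDG, and 186 had MBD3, H3K4me1 and PolII_S5P together in all 3. The count for PolII_S5P is bounded by animal 5, with 4351 peaks.

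Many peaks of 1 library lay beside shared regions. In animals 5, 7 and 9, 40.01%, 40.3% and 42.6% of them lay within 3 kb of a region of all 3 libraries and 87.8 ± 0.0911% within 50 kb (SD, n = 3). For peaks of 2 libraries the shares were 43.0 ± 1.50% within 3 kb and 88.1 ± 0.242% within 50 kb. Closeness to shared regions was thus not particular to peaks of 1 library. The share for positions placed at random was not computed. Among peaks of 1 library, MBD3 lay on 12.2%, 11.6% and 3.74% of those within 3 kb and on 25.7%, 20.7% and 10.6% of those farther away, at median widths of 352 and 345 bp. H3K4me1 differed little between them, with 13.9 ± 4.77% and 15.3 ± 4.24%.

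Strength and sharing went together except in the weak peaks of animal 9. Of the strongest 10% of peaks by fold, 99.7%, 99.3% and 99.3% lay in regions of all 3 libraries in animals 5, 7 and 9. Of the weakest 10%, 32.6% and 33.1% did so in animals 5 and 7 but 82.3% in animal 9, where the share fell to 62.7% in the fifth of 10 classes and rose again. The weakest peaks of animal 9 lay in merged regions with a median width of 1367 bp against 616 and 651 bp. Within a class these widths lay closer. They were 1624 bp against 1426 and 1500 bp in regions of 3 libraries, and 321.5 bp against 379 and 356 bp in regions of 1. Of these weak peaks, 15.5% had a −log10 q of at least 5, against 4.27% and 5.64%. Animal 9 therefore stood apart from animals 5 and 7 in the sharing and the −log10 q of its weakest peaks. It also had the most peaks in regions of all 3 libraries, 45099 against 40943 and 41661. The median width of these peaks was 702 bp in animal 9, against 1009 and 980 bp. The source of these differences was not tested.

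The strongest shared regions differed in width and in the marks they carry. By mean rank of fold the first was chromosome 9, 41489054 to 41495776 (6723 bp), with folds of 23.3, 23.0 and 21.3 in animals 5, 7 and 9 and H3K4me1, PolII_S5P and MBD3 peaks in all 3 animals. The next, chromosome 10, 14082240 to 14094730 (12491 bp), had H3K4me1 and MBD3 in all 3 animals and PolII_S5P in none, and so had chromosome 10, 58215496 to 58225460 (9965 bp, folds 21.4, 22.7 and 19.8). Chromosome 2, 7398147 to 7401556 (3410 bp), had no H3K4me1 but MBD3 in 3 animals and PolII_S5P in 2, and lies in the densest window. Chromosome 10, 97148575 to 97150054, was only 1480 bp wide with folds of 22.2, 25.0 and 19.2, with PolII_S5P in all 3 animals, MBD3 in 2 and H3K4me1 in none. None of these 5 had a TDG peak.

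The strongest regions of 1 library were of mixed kind. Their folds within their own lists were 7.20, 6.66 and 6.54 in animal 5, 7.55, 7.35 and 7.15 in animal 7 and 7.75, 7.32 and 7.11 in animal 9. Of these 9 regions, 4 had MBD3 in all 3 animals although H3K27ac was called in 1, as on chromosome 10 at 45361692 to 45362623 (932 bp, animal 5) and on chromosome 6 at 70363624 to 70364386 (763 bp, animal 7). Another 4 had no other antibody in any animal, as on chromosome 8 at 68217956 to 68218265 (310 bp, animal 9).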

How the data were processed

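ChIP-seq peak lists of 3 mice were used, 1 list per library, not pooled. MACS2 2.2.7.1, Trim Galore 0.6.7, bcl2fastq 2.20, Picard 2.18.29 and SAMtools 1.16.1 are named without their roles, per the submitters' processing notes, which list mm39 and hg38. The contig names are those of mm39. For the aligner and the control, each was not given in the sources used here. Per peak the authors deposited a score, a fold enrichment (ratio), −log10 p, −log10 q and another number, the summit offset in bp from the start. Fold ranked and described peaks within a list and was not tested between lists.

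Members, lists and region rules were chosen with earlier results of these data known. From the lists were computed widths, summit positions, domains (gap at most 3 kb), overlaps (at least 1 bp) and densities. Values per library were compared by two-sided exact permutation, 3 against 3 (smallest p 0.1), with Benjamini-Hochberg adjustment, and within animals by sign flips (smallest p 0.25), since labels tie numbers to animals. Read depth is unknown, and the number of libraries limits precision.

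Regions named: the 5 in all libraries with the best mean fold rank, the 5 widest merged multi-peak domains, the 3 of highest fold in only 1 library per library (examples given), the 3 densest windows and the 2 densest and 2 sparsest chromosomes. Promoter share, gene lists and CpG content were not run, since the reference tables were of GRCm38.p6. Interval code was tested on simulated lists. Tables were made with pandas 2.3.3, numpy 2.4.6 and scipy 1.17.1 in Python 3.11.15, and plots with matplotlib 3.10.9.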

Additional observations from a re-analysis of the deposited data

Results flagged for a closer look

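Peaks on sequences outside chromosomes 1 to 19 entered no comparison, and are given where there were more than 3. Female mice carry chromosome X, so peaks there were certain to be seen, and their listing follows only from the limit to chromosomes 1 to 19. On it there were 919, 996 and 820 H3K27ac peaks in animals 5, 7 and 9, with median widths of 715, 656 and 560 bp. On chromosome Y, which female mice lack, there were 15, 14 and 13 peaks, all between positions 90749224 and 90854114. They merged into 18 regions, 9 of them in all 3 animals, with median folds of 2.97, 2.92 and 3.23. Whether sequence shared with chromosome X lies under them was not tested. Unplaced sequences held 5 peaks in animal 5, 3 in animal 7 and 4 in animal 9.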

How the results depend on the processing

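Of 210 alternative values over 28 results, 189 kept the direction of a tested difference or stayed within 1 SD of an untested value. Some of the 189 could not do otherwise, so the tally does not measure robustness. The replicate block repeats the main difference. Means of H3K27ac width, multi-peak share and summit position cannot move by 1 SD when 1 of 3 animals is left out. Peaks with a −log10 q of at least 5 had a median H3K27ac width of 872 bp, a multi-peak share of 53.2%, a summit distance from the middle of 0.171 and 17.3% central summits at 500 to 1000 bp. There the difference from H3K4me1 in summit distance was 0.00444, and the central summits differed by -2.14 points from H3K4me1 and 0.628 from PolII_S5P. In lists of equal length the multi-peak share was 61.8%, the summit distance 0.186 and the central share 16.1%. With the lists of an animal cut to its shortest other than TDG the multi-peak share was 27%, and the difference was -6.35 points from H3K4me1 and -12.8 from PolII_S5P. A gap of at most 1 kb gave 50.4% and the longer gap tried 82.6%, fixed by the construction. Peaks in all 3 libraries fell to 57.0% when a summit had to lie inside the other peak and to 53.3% when 0.5 of the peak had to be covered, where the TDG difference was -0.0393 points. Bases covered per Mb gave a ratio of 1.85 between chromosomes, and windows of 5 Mb a share of 22.8% in the densest 10%. Among peaks with a −log10 q of at least 5 the sparsest chromosome was 14 in place of 3, and 11 stayed the densest. Leaving out 1 animal at a time moved the central-summit difference from PolII_S5P between -1.30 and 0.877 points, and turned no other direction. Apart from the gaps, the cause was not tested. In the replicate block, which pairs libraries by animal, the differences were the same (137 bp in width from H3K4me1) and no p was below 0.25, the smallest possible. The central-summit and domain-cover alternatives were chosen after seeing the data. Read depth is unknown and could not be varied.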
